A study of Homo sapiens with 37 samples.

Results

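Human mitochondrial DNA encodes 2 ribosomal RNAs, MT-RNR1 (12S) and MT-RNR2 (16S), and the mRNAs of a small set of respiratory chain subunits. The 8 genes described here are both rRNAs and 6 of those mRNAs, out of 60483 IDs in each count table. They were chosen by Ensembl ID, with earlier results of these data known. MT-CO1, MT-CO2 and MT-CO3 encode core subunits of cytochrome c oxidase, MT-CYB encodes cytochrome b of complex III, and MT-ATP6 and MT-ATP8 encode membrane subunits of ATP synthase. As background, both strands of the circular genome are transcribed as long precursors that are cut into rRNAs, tRNAs and mRNAs inside the matrix, where the mitochondrial ribosome, built around the 12S and 16S rRNAs, translates the mRNAs. The mitochondrial mRNAs have no cap and are read without the cytosolic initiation factors, whose cap-binding subunit is eIF4E and whose RNA helicase is eIF4A.

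In the count tables the genes are MT-CO1 (ENSG00000198804), MT-CO2 (ENSG00000198712), MT-CO3 (ENSG00000198938), MT-CYB (ENSG00000198727), MT-ATP6 (ENSG00000198899), MT-ATP8 (ENSG00000228253), MT-RNR1 (ENSG00000211459) and MT-RNR2 (ENSG00000210082). In assembly GRCh38.p14 of RefSeq, all 8 genes lie on chromosome MT. MT-RNR1 spans 648 to 1601 (954 bases) and MT-RNR2 spans 1671 to 3229 (1559 bases). MT-CO1 spans 5904 to 7445 (1542 bases), MT-CO2 spans 7586 to 8269 (684 bases) and MT-CO3 spans 9207 to 9990 (784 bases). MT-CYB spans 14747 to 15887 (1141 bases). MT-ATP8 spans 8366 to 8572 (207 bases) and MT-ATP6 spans 8527 to 9207 (681 bases), so these genes share 46 bases, and MT-ATP6 shares 1 base with MT-CO3. These genes have no introns. The same RefSeq table names 232 nuclear genes after copies of these 8 genes, 58 of them after MT-CO1, 13 after MT-RNR2, 4 after MT-ATP8 and 0 after MT-RNR1. How reads matching several genes were counted is not given in the sources used here, so the split of reads between a mitochondrial gene and its nuclear copies is uncertain for the genes with named copies, as is that between MT-ATP8 and MT-ATP6.

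RNA came from HEK293T, a human embryonic kidney cell line carrying a fusion of APEX, a peroxidase that attaches biotin-phenol to RNA close to it. Per the labels, cells received 500 µM biotin-phenol for 30 min and 1 mM H2O2 for 1 min, and biotinylated RNA was taken up on streptavidin (pulldown) and set against total RNA (input). The naive table holds unstressed cells with APEX-CBX1 (CBX1 is a chromatin protein), C1-APEX (a name the labels do not expand), APEX-eIF4E, APEX-eIF4A or APEX-GFP, each with 2 pulldowns and 2 inputs. The stress table holds APEX-eIF4A cells under hippuristanol, an inhibitor of eIF4A (2 pulldowns, 2 inputs), or DMSO (2 pulldowns, 1 input). It also holds cells of the same construct at T0, labelled naive (2 pulldowns, 2 inputs), and under heat shock at T4 (1 pulldown, 1 input) and T20 (2 pulldowns, 2 inputs), with no unit of T in the labels. No construct is labelled as placed in mitochondria, and no group without APEX or without H2O2 is analysed here.

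Total counts were 1718517 to 3276410 in the 10 naive pulldowns and 1419968 to 2629957 in the 10 naive inputs. In the stress table the 9 pulldowns held 707356 to 1221213 counts and the 8 inputs 4540426 to 7782943. All 8 genes passed the count filter, among 12427 IDs in the naive and 16678 in the stress table. Levels are CPM, counts relative to the TMM-scaled total of a library, and a gene is called where edgeR's quasi-likelihood test gave a Benjamini-Hochberg adjusted p under 0.05 over all tested IDs. No label says whether replicates were separate cultures, so each p measures the spread between these libraries only, and that spread may be technical. It was estimated for each ID over all groups of a table together, so p and standard error do not measure the spread of the compared groups alone. A share of counts in bulk RNA cannot tell fewer cells with an RNA from less RNA per cell. Replicate naive pulldowns correlated across IDs at 0.904 to 0.951, except the C1-APEX pulldowns at 0.761, and stress pulldowns at 0.613 to 0.730.

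The first comparison asked how each construct's pulldown held these RNAs against its own input. In the naive table MT-RNR1 was lower in the pulldown of 5 of 5 constructs, MT-RNR2 of 4 of 5 and MT-CO2 of 5 of 5, although MT-CO2 turned just above 0 for eIF4E and eIF4A when scaled by library size. MT-CO1, MT-CO3 and MT-ATP6 were called for none. MT-CYB rose with C1-APEX and APEX-eIF4E, and MT-ATP8 with C1-APEX. Of the 8 genes, 2 were called for APEX-CBX1, both lower, where 3.91% of all tested IDs were called, 2.31% lower and 1.6% higher. For C1-APEX 3 were lower and 2 higher, against 3.56% and 2.89% of all IDs (6.45% in all). For APEX-eIF4E 3 were lower and 1 higher, against 1.29% and 1.22% (2.51% in all). For APEX-eIF4A 3 were lower, against 1.02% lower and 1.16% higher (2.18% in all), and for APEX-GFP 3 were lower, against 2.09% lower and 1.95% higher (4.04% in all). Both pulldowns lay below both inputs without overlap for 24.7% of all IDs with CBX1, 23.4% with C1, 22.8% with eIF4A, 21.6% with eIF4E and 25.5% with GFP, and above them for 26.5%, 22%, 26%, 24% and 24.6% in the same order. The median log2 fold change over all IDs was between 0.00 and 0.02 for each construct.

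MT-RNR1, the 12S rRNA of the small mitoribosomal subunit, had 10815 and 11784 CPM in the CBX1 pulldowns, against 24150 and 22469 CPM in the CBX1 inputs. With C1-APEX it had 9126 and 10527 CPM in pulldowns, against 25524 and 21919 CPM in inputs. With APEX-eIF4E it had 7957 and 11568 CPM in pulldowns, against 26644 and 25174 CPM in inputs. In these constructs every pulldown lay below every input. With APEX-eIF4A it had 13812 and 12204 CPM in pulldowns, against 33561 and 32527 CPM in inputs. With APEX-GFP it had 8561 and 9630 CPM in pulldowns, against 21235 and 23574 CPM in inputs. Over all constructs the highest pulldown thus stayed below the lowest input. The log2 fold change was -1.04 ± 0.16 for CBX1 (SE, edgeR adjusted p = 1.82e-04), -1.27 ± 0.16 for C1 (edgeR adjusted p = 9.88e-06) and -1.41 ± 0.16 for eIF4E (edgeR adjusted p = 8.42e-07). It was -1.34 ± 0.16 for eIF4A (edgeR adjusted p = 1.88e-06) and -1.30 ± 0.16 for GFP (edgeR adjusted p = 5.00e-06). Each value stayed below 0 in the 4 fits that left out 1 of the construct's libraries. Here and below, the share of all IDs called in such fits was not computed. A call that ended or held in them is therefore not set against a change over all IDs.

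MT-RNR2, the 16S rRNA of the large subunit, had 24940 and 29335 CPM in the CBX1 pulldowns, against 38541 and 38896 CPM in the CBX1 inputs. With C1-APEX it had 19287 and 18252 CPM in pulldowns, against 34090 and 29115 CPM in inputs. With APEX-eIF4E it had 11968 and 14764 CPM in pulldowns, against 34424 and 34678 CPM in inputs. The CBX1 pulldowns were the highest and the eIF4E pulldowns among the lowest. With APEX-eIF4A it had 18946 and 18748 CPM in pulldowns, against 42491 and 41409 CPM in inputs. With APEX-GFP it had 13824 and 22148 CPM in pulldowns, against 32178 and 38379 CPM in inputs. Pulldowns and inputs did not overlap within any construct. The log2 fold change was -1.37 ± 0.17 for eIF4E (edgeR adjusted p = 5.45e-06), -1.15 ± 0.17 for eIF4A (edgeR adjusted p = 8.82e-05) and -0.97 ± 0.17 for GFP (edgeR adjusted p = 8.44e-04). It was -0.75 ± 0.17 for C1 (edgeR adjusted p = 0.00887), a call that ended without C1 input replicate 1 (-0.67, edgeR adjusted p = 0.126). For CBX1 it was -0.51 ± 0.17 and missed the threshold (edgeR adjusted p = 0.0962). It passed with DESeq2 (adjusted p = 0.0415), which called 3.8% of the IDs to which it gave an adjusted p. It also passed without the count filter (edgeR adjusted p = 0.00326), where 1.29% of all IDs were called. Scaled by library size, the eIF4A call ended (-0.34, edgeR adjusted p = 0.0520), in a fit that called 31.7% of all IDs. Relative to the median of all IDs in that fit, 0.82, the eIF4A value was -1.16.

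MT-CO2, the cytochrome c oxidase subunit that takes electrons from cytochrome c, was the one mRNA of the 6 called lower. It had 241 and 241 CPM in the CBX1 pulldowns, against 430 and 443 CPM in the CBX1 inputs. With C1-APEX it had 340 and 352 CPM in pulldowns, against 508 and 461 CPM in inputs. With APEX-eIF4E it had 310 and 470 CPM in pulldowns, against 697 and 617 CPM in inputs. The spread between the eIF4E pulldowns was the widest of the 5 constructs. With APEX-eIF4A it had 330 and 337 CPM in pulldowns, against 571 and 585 CPM in inputs. With APEX-GFP it had 204 and 207 CPM in pulldowns, against 361 and 394 CPM in inputs. No pulldown reached an input of its own construct. The log2 fold change was -0.86 ± 0.14 for CBX1 (edgeR adjusted p = 3.70e-04), -0.79 ± 0.14 for eIF4A (edgeR adjusted p = 5.89e-04) and -0.88 ± 0.14 for GFP (edgeR adjusted p = 3.12e-04). It was -0.75 ± 0.14 for eIF4E (edgeR adjusted p = 9.84e-04), a call that ended without eIF4E pulldown replicate 1 (-0.47, edgeR adjusted p = 0.134). For C1 it was -0.48 ± 0.14 (edgeR adjusted p = 0.0318), and the call ended without C1 input replicate 1 (adjusted p = 0.248), input replicate 2 (0.0848) or pulldown replicate 1 (0.0738).

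The direction of MT-CO2 depended on the scaling. Scaled by library size, the median of all IDs moved to 0.89 for eIF4E, 0.82 for eIF4A, 0.41 for CBX1, 0.24 for GFP and 0.18 for C1, and MT-CO2 came to 0.12 for eIF4E and 0.02 for eIF4A on the log2 scale, neither called. Its calls for CBX1 (-0.47, edgeR adjusted p = 0.0934) and C1 (-0.31, edgeR adjusted p = 0.292) also ended under library size, and that for GFP held. Relative to that median it was -0.77 for eIF4E, -0.80 for eIF4A, -0.88 for CBX1, -0.87 for GFP and -0.49 for C1. Both rRNAs stayed below 0 for all 5 constructs under library size, MT-RNR1 between -1.10 and -0.53 and MT-RNR2 between -0.74 and -0.13.

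**Figure D1:**
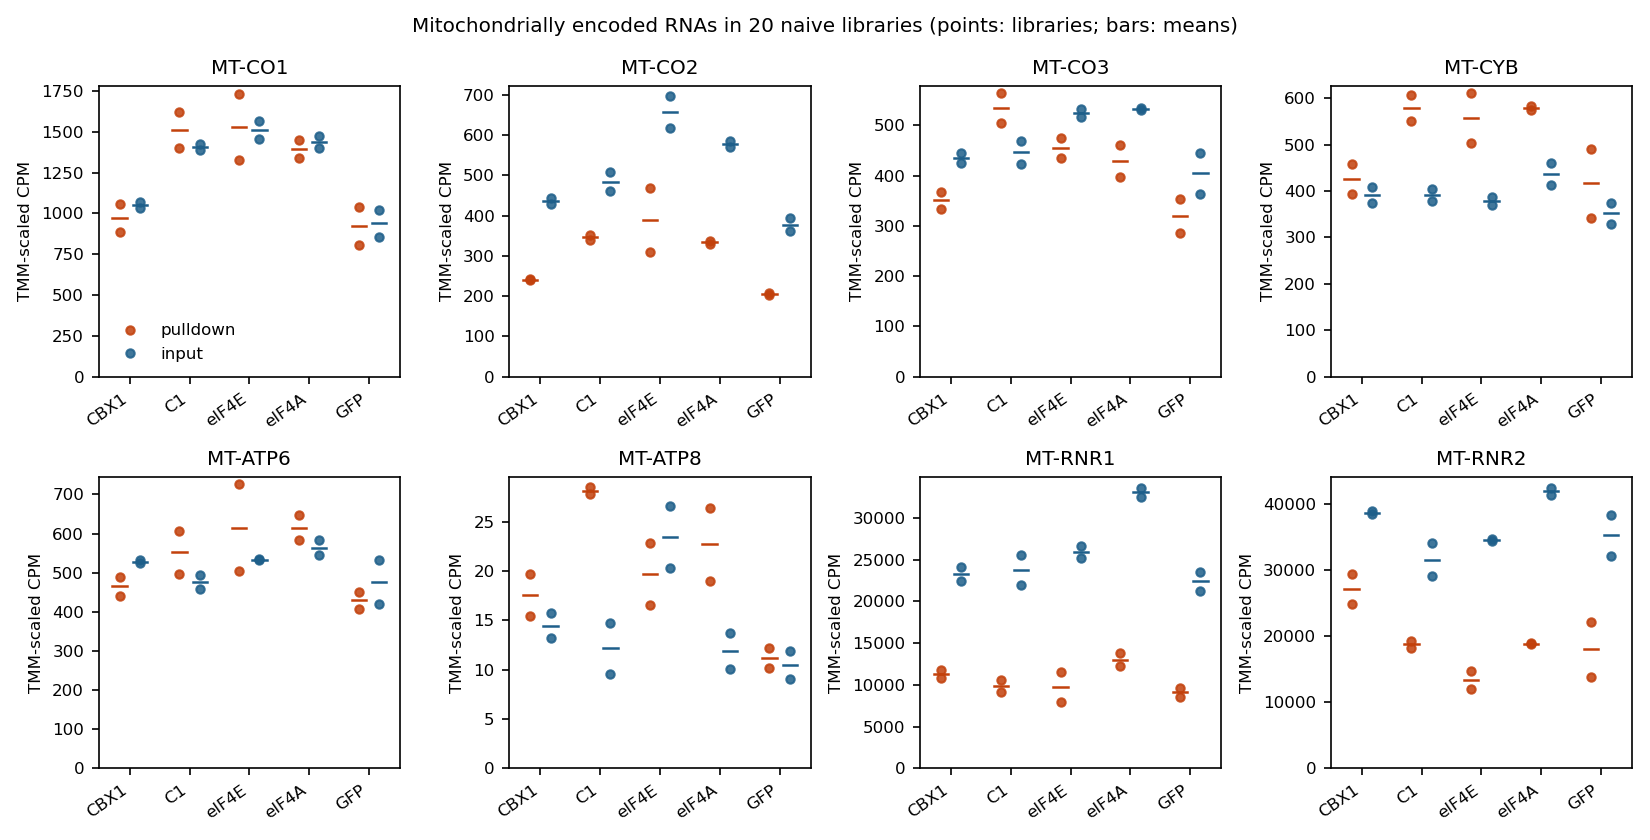
TMM-scaled CPM (y axes, from 0, different in each panel) of the 8 genes in the 20 naive libraries by construct, with pulldowns left of inputs; points are libraries and short bars the means of 2. In the MT-RNR1 panel every pulldown lies below every input, from 7957 to 13812 CPM against 21235 to 33561 CPM, while MT-CO1 pulldowns and inputs lie close together within a construct.

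MT-CYB, cytochrome b, had 606 and 551 CPM in the C1 pulldowns, against 405 and 378 CPM in the C1 inputs. With APEX-eIF4E it had 505 and 612 CPM in pulldowns, against 369 and 386 CPM in inputs. With APEX-eIF4A it had 574 and 583 CPM in pulldowns, against 412 and 460 CPM in inputs. In these 3 constructs the pulldowns lay above the inputs. The log2 fold change was 0.56 ± 0.14 for C1 (edgeR adjusted p = 0.0172), 0.56 ± 0.14 for eIF4E (edgeR adjusted p = 0.0250) and 0.40 ± 0.14 for eIF4A (edgeR adjusted p = 0.168). The eIF4A value was called under library size (1.22, edgeR adjusted p = 6.07e-06), where 31.3% of all IDs were called higher. Relative to the library-size median of all IDs, 0.82, it was 0.39. With only the eIF4A libraries fitted it was called too (0.38, edgeR adjusted p = 0.0366), as were 6.58% of tested IDs. The C1 call held only without C1 pulldown replicate 2, and ended without C1 input replicate 1 (edgeR adjusted p = 0.126), input replicate 2 (0.179) or pulldown replicate 1 (0.0608). The eIF4E call held only without eIF4E pulldown replicate 1, and ended without input replicate 1 (edgeR adjusted p = 0.246), input replicate 2 (0.182) or pulldown replicate 2 (0.203). For CBX1 and GFP the log2 values were 0.12 ± 0.14 and 0.24 ± 0.14, neither called.

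MT-ATP8, the smaller of the 2 ATP synthase subunits encoded here, rested on 12 to 40 counts in inputs and 21 to 90 counts in pulldowns. The C1 pulldowns held 52 and 65 counts of it (28.5 and 27.8 CPM), against 24 and 12 counts in the C1 inputs (14.8 and 9.57 CPM). The log2 fold change was 1.18 ± 0.34 (edgeR adjusted p = 0.0323), called in 1 of 4 fits with a library left out, where adjusted p reached 0.302 without C1 input replicate 2, 0.117 without input replicate 1 and 0.0593 without pulldown replicate 1. DESeq2 did not call it (adjusted p = 0.0534). With APEX-eIF4A it was 0.97 ± 0.34 and not called (edgeR adjusted p = 0.169). Under library size it was called (1.79, edgeR adjusted p = 5.73e-04), where 31.3% of all IDs were called higher. Relative to the median of all IDs in that fit it was 0.96. For CBX1, eIF4E and GFP it lay between -0.25 and 0.29 under TMM. Fitted on the C1 libraries by themselves, the C1 calls of MT-CO2, MT-CYB, MT-ATP8 and MT-RNR2 all ended, with edgeR adjusted p of 0.211 to 0.333, and that of MT-RNR1 held.

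MT-CO1, which carries the oxygen-reducing centre of cytochrome c oxidase, had a log2 fold change between -0.11 and 0.10 over the 5 constructs. MT-CO3, a core subunit without a metal centre, lay between -0.34 and 0.26, with a value above 0 for C1 alone. MT-ATP6, which forms part of the proton channel, lay between -0.18 and 0.21. Their standard errors were 0.13 to 0.15, and no construct reached the threshold for any of them under TMM. Under library size all 3 were called higher with APEX-eIF4E (0.89 for MT-CO1, 0.67 for MT-CO3 and 1.08 for MT-ATP6) and with APEX-eIF4A (0.77, 0.51 and 0.95 in the same order), where 35.9% and 31.3% of all IDs were also called higher.

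**Figure D2:**
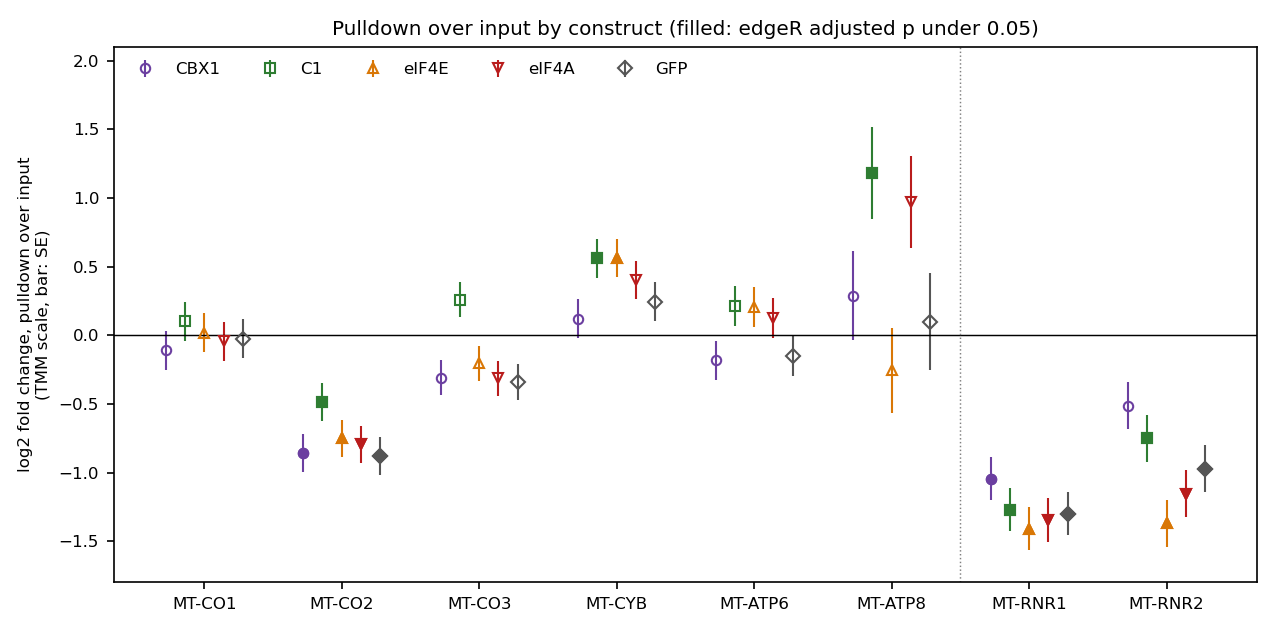
Log2 fold change of pulldown over input (y axis, TMM scale) for the 8 genes, with 1 symbol for each construct; bars are standard errors and filled symbols are called. MT-RNR1 (-1.41 to -1.04), MT-RNR2 and MT-CO2 lie below 0 for all 5 constructs on this scale, although MT-CO2 comes to 0.12 for eIF4E and 0.02 for eIF4A under library size, and MT-CO1 lies between -0.11 and 0.10.

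Setting mRNAs against rRNAs within a library removes the scaling between libraries. The summed counts of the 6 mRNAs over those of the 2 rRNAs were higher in the pulldown than in the input of 5 of 5 constructs, with no overlap within any. On the TMM scale the median log2 fold change of the 6 mRNAs was -0.15 to 0.23 over the constructs, and that of the rRNAs -1.39 to -0.78. On that scale the ratio mostly restates the lower rRNAs, but the part of each side depends on the scaling. The mRNAs took a mean of 0.271% of input and 0.486% of pulldown counts with eIF4E, and 0.262% and 0.435% with eIF4A. In the same order the rRNAs took 4.52% and 3.15%, and 5.51% and 4.09%. With GFP the mRNAs took 0.243% and 0.259%, and the rRNAs 5.48% and 3.03%. The log2 ratio was -3.76 and -4.15 in the CBX1 pulldowns, against -4.48 and -4.40 in the CBX1 inputs. It was -2.92 and -3.11 in the C1 pulldowns, against -4.17 and -4.03 in the C1 inputs. It was -2.69 and -2.70 in the eIF4E pulldowns, against -4.04 and -4.08 in the eIF4E inputs. The eIF4E pulldowns were the highest of the naive table and the CBX1 pulldowns the lowest among pulldowns. The eIF4A pulldowns gave -3.34 and -3.14, against -4.44 and -4.36 in the eIF4A inputs. The GFP pulldowns gave -3.44 and -3.64, against -4.51 and -4.48 in the GFP inputs. In counts, 6.44 to 17.8 rRNA reads stood beside each mRNA read in pulldowns and 16.4 to 22.8 in inputs.

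The mean difference of pulldown minus input in this log2 ratio was 1.36 for eIF4E (2.58-fold), 1.16 for eIF4A (2.23-fold), 1.09 for C1 (2.12-fold), 0.95 for GFP (1.94-fold) and 0.48 for CBX1 (1.40-fold). The pulldown means were -2.70 ± 0.01 for eIF4E, -3.24 ± 0.14 for eIF4A, -3.01 ± 0.14 for C1, -3.54 ± 0.14 for GFP and -3.96 ± 0.28 for CBX1 (SD, n = 2 each). In that order the inputs had means of -4.06 ± 0.02, -4.40 ± 0.06, -4.10 ± 0.10, -4.50 ± 0.02 and -4.44 ± 0.06 (SD, n = 2 each). With 1 library left out the differences ran from 1.06 to 1.25 for eIF4A, 0.99 to 1.18 for C1 and 0.86 to 1.05 for GFP, so eIF4A overlapped C1 and C1 overlapped GFP. Those of eIF4E (1.35 to 1.38) and CBX1 (0.29 to 0.68) overlapped none of these. That separation of eIF4E did not hold in every form of the ratio: with MT-RNR1 as the one rRNA it was 1.40 for eIF4E and 1.41 for C1, and as a mean of log2 counts it was 1.32 for eIF4E, 1.31 for C1 and 1.29 for eIF4A. The ratio is given as a description, with no p. The rRNAs took 2.59% to 4.59% of counts in pulldowns and 4.18% to 5.87% in inputs, and the 6 mRNAs took 0.246% to 0.570% in pulldowns and 0.227% to 0.294% in inputs.

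**Figure D3:**
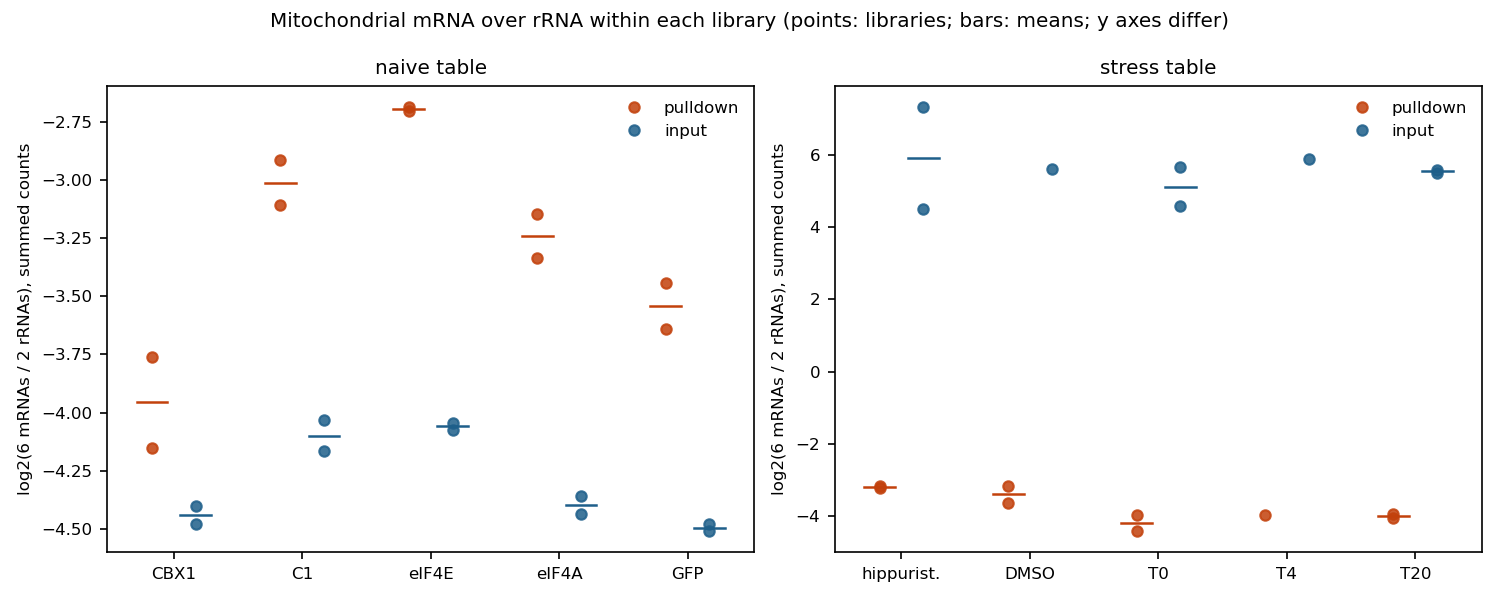
Log2 of the summed counts of the 6 mRNAs over the 2 rRNAs in each library (y axes differ between the tables), with pulldowns left of inputs; points are libraries and short bars the means of 2. In the naive table every pulldown lies above the inputs of its construct, and in the stress table every pulldown lies between -4.41 and -3.16 and every input between 4.51 and 7.32.

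Ratios between genes, as counts per kilobase of gene, showed that the mRNAs did not keep 1 proportion in both fractions. MT-CO2 over MT-CO1 was 0.450 to 0.611 in the 10 naive pulldowns (median 0.541) and 0.747 to 1.01 in the 10 inputs (median 0.926), without overlap over all constructs. MT-CYB over MT-CO1 was 0.477 to 0.639 in pulldowns and 0.319 to 0.519 in inputs, with every pulldown above the inputs of its own construct. MT-CO3 over MT-CO1 was 0.539 to 0.740 in pulldowns and 0.599 to 0.859 in inputs, and MT-ATP6 over MT-CO1 was 0.804 to 1.14 in pulldowns and 0.748 to 1.18 in inputs, both overlapping. MT-ATP8 over MT-ATP6 was 0.0823 to 0.184 in pulldowns and 0.0608 to 0.164 in inputs, although the genes are neighbours that share bases. MT-RNR1 over MT-RNR2 was 0.656 to 1.28 in pulldowns and 0.944 to 1.29 in inputs. For this rRNA ratio the pulldowns lay below the inputs with CBX1 (0.709 and 0.656 in pulldowns, 1.02 and 0.944 in inputs), C1 (0.773 and 0.943 in pulldowns, 1.22 and 1.23 in inputs) and eIF4A (1.19 and 1.06 in pulldowns, 1.29 and 1.28 in inputs), and overlapped with eIF4E and GFP.

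**Figure D4:**
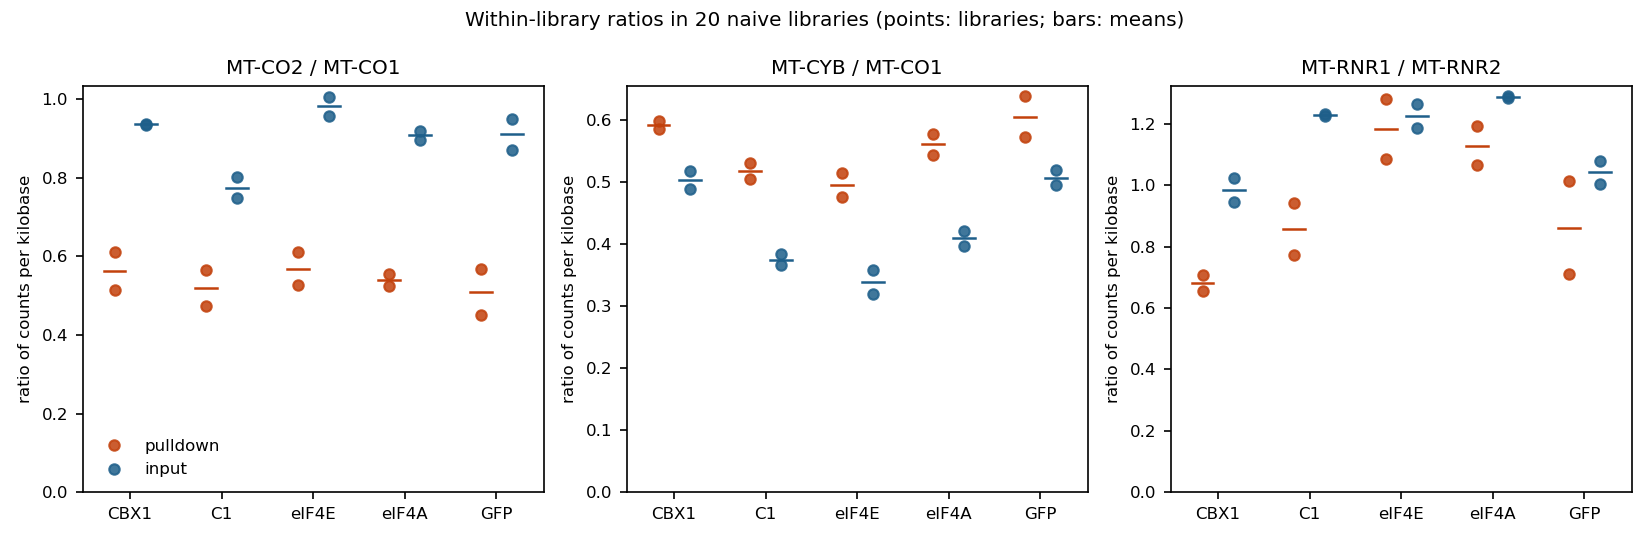
Ratios of counts per kilobase between pairs of genes in the 20 naive libraries (y axes from 0), by construct with pulldowns left of inputs; points are libraries and short bars the means of 2. MT-CO2 over MT-CO1 is at most 0.611 in pulldowns and at least 0.747 in inputs, and MT-CYB over MT-CO1 is higher in the pulldowns of each construct.

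The level of the genes also differed among themselves by length-scaled abundance in naive libraries. MT-RNR1 had 8340 to 14478 CPM per kilobase in pulldowns and 22259 to 35180 CPM per kilobase in inputs, and MT-RNR2 had 7677 to 18816 CPM per kilobase in pulldowns and 18675 to 27255 CPM per kilobase in inputs. Among the mRNAs, median levels in pulldowns were 865 CPM per kilobase for MT-CO1, 735 for MT-ATP6, 531 for MT-CO3, 468 for MT-CO2, 463 for MT-CYB and 93.6 for MT-ATP8, also in CPM per kilobase. In inputs the medians were 905 CPM per kilobase for MT-CO1, 781 for MT-ATP6, 708 for MT-CO2, 583 for MT-CO3, 335 for MT-CYB and 65.1 for MT-ATP8. MT-CO2 thus had the third level of the 6 mRNAs in inputs and the fourth in pulldowns, where MT-CO2 and MT-CYB differed by less than their spread over libraries.

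The second comparison took each construct's pulldown over input against that of APEX-GFP. None of the 8 genes was called by edgeR for CBX1 over GFP, where 0.161% of all IDs were called, or for C1, eIF4E or eIF4A over GFP, where 0% were. None was called for CBX1 over C1 (0.0644% of all IDs) or for eIF4A over eIF4E (0%). At an unadjusted p under 0.05, edgeR counted 2 of the 8 genes for C1 over GFP (8.41% of all IDs), 2 for CBX1 over C1 (9.92%) and 1 for eIF4A over eIF4E (2.02%). It counted 0 for CBX1 (7.34% of all IDs), eIF4E (3.8%) and eIF4A (3.31%) over GFP. These comparisons share the GFP or C1 libraries and are not independent of each other.

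For C1 over GFP all 6 mRNAs had input-adjusted log2 values above 0, from 0.13 ± 0.20 for MT-CO1 to 1.08 ± 0.49 for MT-ATP8. MT-CO3 had 0.60 ± 0.18 (edgeR adjusted p = 0.330), and 0.44 to 0.76 in the 8 fits with 1 library left out. MT-RNR1 and MT-RNR2 had 0.03 ± 0.22 and 0.22 ± 0.24. For CBX1 over C1 all 6 mRNAs were below 0, from -0.90 ± 0.47 for MT-ATP8 to -0.21 ± 0.20 for MT-CO1. MT-CO3 had -0.57 ± 0.18 there (edgeR adjusted p = 0.278), and -0.62 to -0.48 in the 8 fits with 1 library left out. The rRNAs had 0.23 ± 0.22 and 0.24 ± 0.24. For eIF4E over GFP the values ran from -0.40 ± 0.24 for MT-RNR2 to 0.36 ± 0.20 for MT-ATP6, and for eIF4A over GFP from -0.18 ± 0.24 for MT-RNR2 to 0.87 ± 0.49 for MT-ATP8. For CBX1 over GFP they ran from -0.12 ± 0.20 for MT-CYB to 0.46 ± 0.24 for MT-RNR2.

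Without the inputs, mRNA levels in the pulldowns differed between constructs. Against the GFP pulldowns, 5 mRNAs were higher in the C1 pulldowns (3.29% of all IDs were called higher, 6.7% in all) and 4 in the eIF4E pulldowns (2.74% higher, 5.46% in all). In the eIF4A pulldowns 2 were higher (0.909% higher, 1.64% in all), and none of the 8 genes was called in the CBX1 pulldowns (0.7% higher, 1.53% in all). MT-CO1 had 1620 and 1402 CPM in the C1 pulldowns, 1326 and 1734 CPM in the eIF4E pulldowns and 1341 and 1448 CPM in the eIF4A pulldowns, against 808 and 1038 CPM in the GFP pulldowns. Its log2 fold change over GFP was 0.71 ± 0.14 for C1 (edgeR adjusted p = 0.00366), 0.73 ± 0.14 for eIF4E (edgeR adjusted p = 0.00198) and 0.59 ± 0.14 for eIF4A (edgeR adjusted p = 0.0246). MT-CO2 was higher in the same 3 pulldowns, by 0.75 ± 0.14, 0.93 ± 0.14 and 0.70 ± 0.14 on the log2 scale. Neither rRNA was called over the GFP pulldowns for any construct, and none of the 8 genes was called in the eIF4A pulldowns over the eIF4E pulldowns (2.16% of all IDs). In the CBX1 pulldowns over the C1 pulldowns (9.21% of all IDs called), MT-CO1, MT-CO2, MT-CO3 and MT-CYB fell, by 0.63, 0.52, 0.60 and 0.44 on the log2 scale, and MT-RNR2 rose by 0.53 ± 0.17 (edgeR adjusted p = 0.0473).

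The inputs themselves differed in part of these genes. MT-CO1 had 1563 and 1455 CPM in the eIF4E inputs and 1402 and 1473 CPM in the eIF4A inputs, against 859 and 1020 CPM in the GFP inputs. MT-CO2 had 697 and 617 CPM in the eIF4E inputs and 571 and 585 CPM in the eIF4A inputs, against 361 and 394 CPM in the GFP inputs. Over the GFP inputs 2 of the 8 genes, MT-CO1 and MT-CO2, were called higher in the eIF4E inputs (2.78% of all IDs called) and in the eIF4A inputs (0.579%), and none in the C1 (0.33%) or CBX1 inputs (0.0885%). In the eIF4E inputs the log2 fold changes were 0.68 ± 0.14 for MT-CO1 (edgeR adjusted p = 0.00645) and 0.80 ± 0.14 for MT-CO2 (edgeR adjusted p = 9.00e-04). In the eIF4A inputs they were 0.61 ± 0.14 for MT-CO1 (edgeR adjusted p = 0.0367) and 0.62 ± 0.14 for MT-CO2 (edgeR adjusted p = 0.0264). In the C1 inputs MT-CO1 had 0.59 ± 0.14 and missed the threshold (edgeR adjusted p = 0.0644). It was called without the count filter (0.54, edgeR adjusted p = 0.00832), as were 0.187% of all IDs. DESeq2 called it (0.60, adjusted p = 0.00451), with 2.77% of IDs given an adjusted p. So did a fit on the compared inputs by themselves (0.61, edgeR adjusted p = 4.93e-05), with 4.57% of tested IDs. Under library size it was not called (0.45, edgeR adjusted p = 0.349). MT-RNR1 had 33561 and 32527 CPM in the eIF4A inputs, against 21235 and 23574 CPM in the GFP inputs. Its log2 value of 0.56 missed the threshold (edgeR adjusted p = 0.102). Without the count filter it was called (0.53, edgeR adjusted p = 1.61e-05), as were 0.268% of all IDs. DESeq2 called it too (0.59, adjusted p = 0.00149), with 8.71% of the IDs to which it gave an adjusted p. Fitted on the compared inputs by themselves it was called (0.60, edgeR adjusted p = 3.75e-05), as was MT-RNR2 (0.29, edgeR adjusted p = 0.0363). That fit called 5.38% of all IDs.

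Leaving out 1 library ended most of these input calls. Both eIF4A calls ended whichever of the 4 libraries was left out, with log2 values of 0.47 to 0.72 for MT-CO1 (edgeR adjusted p = 0.177 to 0.648) and 0.53 to 0.66 for MT-CO2 (edgeR adjusted p = 0.230 to 0.499). The eIF4E call of MT-CO1 held only without GFP input replicate 2 (edgeR adjusted p = 0.0266) and gave 0.193 without GFP input replicate 1, 0.0982 without eIF4E input replicate 1 and 0.0603 without eIF4E input replicate 2. Its log2 values were 0.55 to 0.80 in these fits. The eIF4E call of MT-CO2 held in 3 of 4 fits and ended without GFP input replicate 1 (0.72, edgeR adjusted p = 0.0512). Under library size none of these 4 calls held, and the median of all IDs moved to -0.36 for the eIF4E inputs and -0.37 for the eIF4A inputs. Relative to that median, MT-CO1 and MT-CO2 were 0.69 and 0.81 in the eIF4E inputs. In the eIF4A inputs both were 0.62.

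In the stress table the inputs held almost none of the rRNAs. MT-RNR1 and MT-RNR2 together had 97 to 383 counts in the 8 inputs, or 0.00194% to 0.00555% of a library, against 20376 to 51188 counts in the 9 pulldowns, or 2.21% to 5.14%. The labels state the same extraction and library kit for both tables, and why these inputs differ from the naive ones is not given in the sources used here. The mRNAs were uneven there too: MT-ATP6 over MT-CO1 per kilobase was 0.626 to 0.900 in the stress pulldowns and 0.00856 to 0.0226 in the stress inputs. MT-CO2 over MT-CO1 per kilobase was 0.716 to 1.15 in the stress pulldowns and 0.0661 to 0.256 in the stress inputs. Any pulldown over input of this table therefore carries a difference between kinds of input, whose part in the results was not tested.

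Each of the 3 pulldown over input comparisons of the stress table called 5 of the 8 genes, all higher: both rRNAs, MT-CO2, MT-CYB and MT-ATP6. Of all IDs, 0.246% were called higher under hippuristanol (0.252% in all), 0.3% at T0 (0.36% in all) and 0.252% at T20 (0.372% in all), with medians over all IDs of -0.36, -0.55 and -0.29. MT-RNR1 had a log2 fold change of 11.35 ± 0.56 under hippuristanol (edgeR adjusted p = 7.18e-12), and 11.70 ± 0.57 at T0 (edgeR adjusted p = 5.14e-12). MT-RNR2 had 9.91 ± 0.45 under hippuristanol and 10.90 ± 0.47 at T0, and both rRNAs were called at T20 as well (edgeR adjusted p = 1.20e-11 for MT-RNR1 and 1.68e-12 for MT-RNR2). MT-ATP6 had 5.95 ± 0.60 under hippuristanol, 7.07 ± 0.64 at T0 and 4.97 ± 0.57 at T20. These sizes moved with single inputs: without T0 input replicate 1, MT-ATP6 at T0 came to 8.42 and without T0 input replicate 2 to 6.48. Under hippuristanol, MT-RNR1 came to 12.62 and MT-RNR2 to 10.79 without input replicate 1, MT-RNR1 to 10.67 and MT-ATP6 to 6.63 without input replicate 2, and MT-ATP6 to 5.27 and MT-CYB to 2.22 without pulldown replicate 2. All of these stayed called except MT-CYB. Under hippuristanol, at T0 and at T20, in that order, MT-CO2 had 3.53 ± 0.39, 3.29 ± 0.39 and 2.53 ± 0.38, and MT-CYB had 2.83 ± 0.44, 2.72 ± 0.44 and 2.17 ± 0.42. MT-CO1, with values from -0.19 to 1.06, and MT-CO3, from 0.31 to 1.49, were called in none of the 3.

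MT-RNR1 had 10818 and 19872 CPM in the hippuristanol pulldowns, against 9.39 and 2.40 CPM in the hippuristanol inputs. At T20 it had 9037 and 8522 CPM in the pulldowns, against 3.78 and 4.69 CPM in the inputs. MT-ATP6 had 401 and 307 CPM in the T20 pulldowns, against 12.5 and 9.96 CPM in the T20 inputs. Each pulldown lay above each input for these genes, as it did for 11.8% of all IDs under hippuristanol, 7.45% at T0 and 15.5% at T20. MT-CO1 had 1112 and 1019 CPM in the T20 pulldowns, against 1256 and 1181 CPM in the T20 inputs, so the fractions lay close together. MT-ATP8 had 0 to 17 counts in the stress pulldowns and 0 to 6 counts in the stress inputs, too few for a fold. Where an input held 0 counts, the upper limit was 3 counts.

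Several calls of MT-CYB ended with 1 library left out. The T20 call (edgeR adjusted p = 0.0194) ended whichever of the 4 libraries was left out, with log2 values of 1.95 to 2.43 and adjusted p of 0.0917 to 0.388. The hippuristanol call ended without hippuristanol input replicate 1 (edgeR adjusted p = 0.0713) or pulldown replicate 2 (0.122), and the T0 call without T0 input replicate 2 (edgeR adjusted p = 0.0794) or pulldown replicate 1 (0.0781). The MT-CO2 call at T20 ended without T20 input replicate 2 (edgeR adjusted p = 0.0516). Fitted on the libraries compared by themselves, the T20 calls of MT-CO2 and MT-CYB (edgeR adjusted p = 0.144 each) ended too. The T0 call of MT-CYB (edgeR adjusted p = 0.0728) ended there as well, and its T20 call also under library size (edgeR adjusted p = 0.101). The fits on compared libraries called 0.181% of tested IDs at T20 and 0.251% at T0, and library size called 0.438% at T20. Pulldown minus input in the log2 ratio of mRNA over rRNA was -9.10 under hippuristanol, -9.30 at T0 and -9.53 at T20, where the naive table had values above 0. The inputs behind these values had SDs of 1.99, 0.76 and 0.07 in the same order (n = 2 each).

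**Figure D5:**
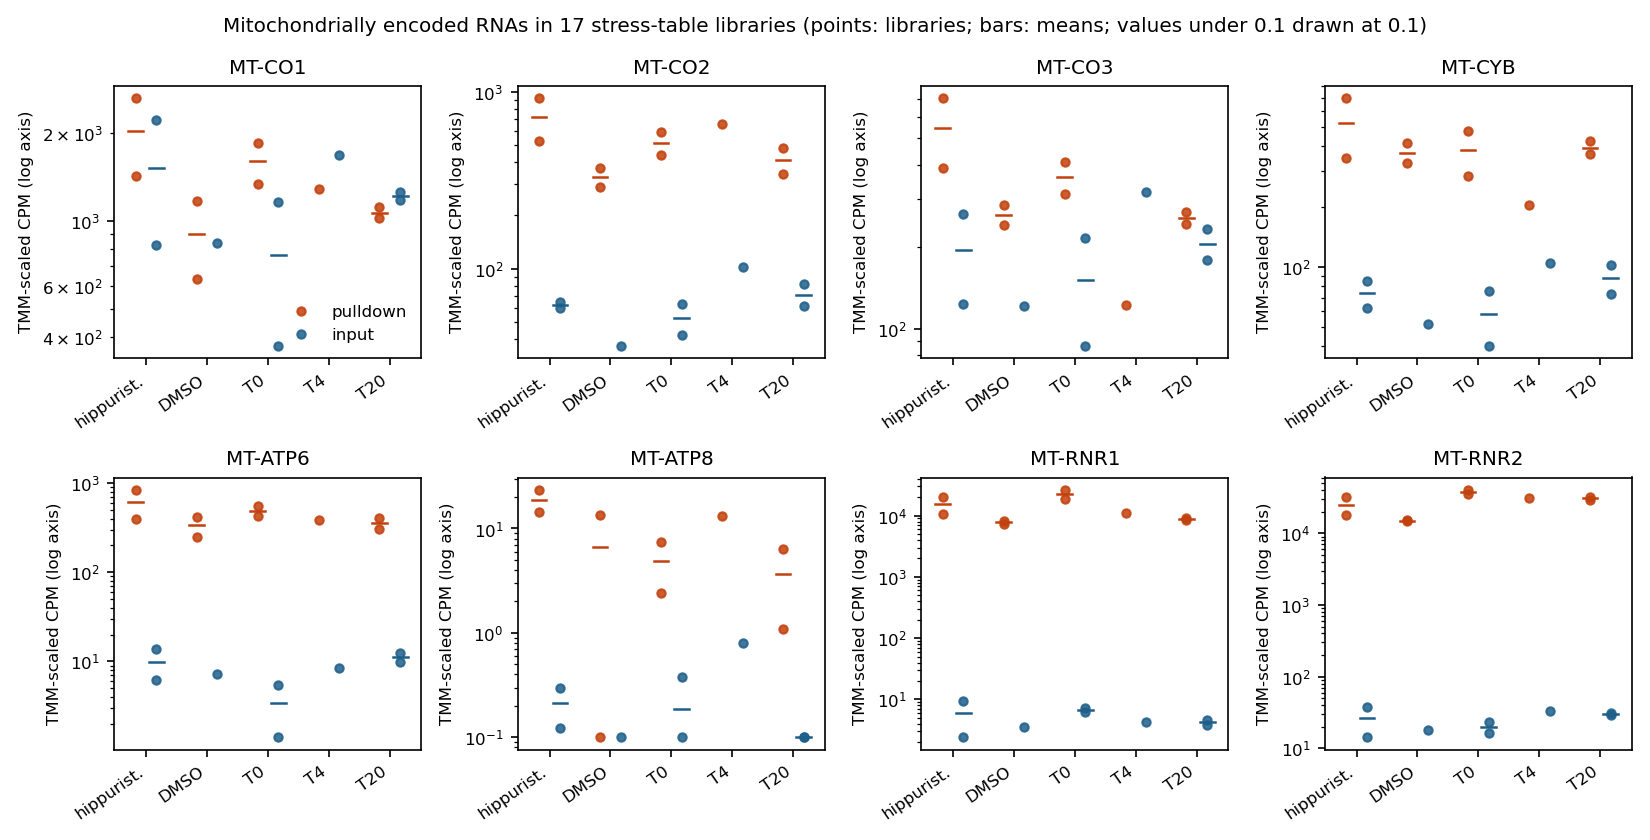
TMM-scaled CPM (log axes, different in each panel) of the 8 genes in the 17 stress-table libraries by condition, with pulldowns left of inputs; points are libraries, short bars the means of 2, and values under 0.1 are drawn at 0.1. MT-RNR1 inputs lie at 2.40 to 9.39 CPM beneath pulldowns of 7342 to 26329 CPM, while MT-CO1 inputs and pulldowns share 1 range.

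The pulldowns alone, which do not rest on those inputs, were compared between conditions. In T20 over T0 pulldowns edgeR called none of the 8 genes, with 0.144% of all IDs called. At an unadjusted p under 0.05 it counted 1 of the 8 genes, and 17.1% of all IDs. MT-RNR1 had 9037 and 8522 CPM at T20, against 18816 and 26329 CPM at T0. Its log2 fold change was -1.36 ± 0.37 (edgeR adjusted p = 0.126), while DESeq2 called it (-1.39, adjusted p = 0.0408), together with 7.92% of the IDs to which it gave an adjusted p. MT-RNR2 had 32104 and 29261 CPM at T20, against 40347 and 35602 CPM at T0, a log2 fold change of -0.31 ± 0.31 that was not called. The T4 pulldown, with 1 library and no replicate check, had 10847 CPM of MT-RNR1 and 31217 CPM of MT-RNR2. The mRNAs lay between -0.58 ± 0.45 for MT-CO1 and 0.04 ± 0.41 for MT-CYB, leaving out MT-ATP8, beside a median of 0.09 over all IDs.

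The ratio of MT-RNR1 to MT-RNR2 per kilobase, free of the scaling, was 0.762 and 1.21 in the T0 pulldowns, 0.568 in the T4 pulldown and 0.460 and 0.476 in the T20 pulldowns. The T20 and T0 pulldowns did not overlap in it, although the T0 replicates were far apart. In the hippuristanol pulldowns the ratio was 0.977 and 1.01, against 0.894 and 0.814 in the DMSO pulldowns. The log2 ratio of mRNA over rRNA was -3.96 and -4.41 in the T0 pulldowns, -3.98 in the T4 pulldown and -3.94 and -4.05 in the T20 pulldowns, so T0 and T20 overlapped.

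In T20 over T0 inputs edgeR called none of the 8 genes (0.042% of all IDs), with 1 at an unadjusted p under 0.05 (1.37% of all IDs). For T20 over T0 after input adjustment it called none (0% of all IDs), also with 1 at that unadjusted p (7.35% of all IDs). The T0 inputs differed from each other, with 1158 and 373 CPM of MT-CO1, against which the T20 inputs had 1256 and 1181 CPM.

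Hippuristanol over DMSO pulldowns gave no call among the 8 genes and 0% of all IDs by edgeR, while 5 of the 8 genes and 14.4% of all IDs had an unadjusted p under 0.05. All 8 log2 values were above 0, beside a median of 0.05 over all IDs. MT-CO2 had 526 and 920 CPM under hippuristanol, against 373 and 292 CPM under DMSO, a log2 fold change of 1.12 ± 0.36 (edgeR adjusted p = 0.220). MT-CO1 had 1425 and 2629 CPM under hippuristanol, against 1173 and 630 CPM under DMSO, a log2 fold change of 1.17 ± 0.45 (edgeR adjusted p = 0.267). MT-RNR1 had 10818 and 19872 CPM under hippuristanol, against 8321 and 7342 CPM under DMSO, a log2 fold change of 0.97 ± 0.36 (edgeR adjusted p = 0.263). In each of these genes both hippuristanol pulldowns lay above both DMSO pulldowns, as in 18.8% of all IDs, and the second hippuristanol pulldown held the higher level. MT-RNR2 had 0.75 ± 0.31, MT-CO3 1.06 ± 0.44, MT-ATP6 0.88 ± 0.49 and MT-CYB 0.49 ± 0.41, all on the log2 scale and not called. The log2 ratio of mRNA over rRNA was -3.22 and -3.17 under hippuristanol, against -3.16 and -3.63 under DMSO, and overlapped.

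Across the 20 naive libraries the levels of these genes moved together in part, as Pearson correlations of log2 CPM that share fraction and scaling. MT-RNR1 and MT-RNR2 correlated at 0.898 and MT-CO1 and MT-CO3 at 0.842. MT-CO2 correlated at 0.815 with MT-RNR1 and at 0.625 with MT-CO1, while MT-CYB correlated at -0.531 with MT-RNR1. The ID most like the mean of the 6 mRNAs was ENSG00000237973.1 (r = 0.946) and the one most like the mean of the rRNAs was ENSG00000255633.4 (r = 0.977), out of 2099 IDs whose log2 CPM averaged 5 or more over the 20 libraries. The files pair neither with a name.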

How the data were processed

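The authors deposited raw whole-number counts per versioned Ensembl ID in a table for 20 naive and a table for 17 stress libraries. Per the submitters' processing notes these counts were made with cutadapt, HISAT2 and featureCounts on GRCh38. Their versions, strand setting and handling of multiply matching reads were not given in the sources used here. Groups came from sample titles, also for the hippuristanol inputs, which carry a heat shock label. A column name that 2 samples' descriptions share was taken, by table, as the naive eIF4A input replicate 2 or as the DMSO input.

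Each table was fitted by itself in edgeR 4.0.16 (R 4.3.3): filterByExpr by group, TMM, robust dispersions, and glmQLFit with a 2-sided quasi-likelihood F test on group means over all libraries, Benjamini-Hochberg over all tested IDs, called at an adjusted p under 0.05. A standard error is the log2 fold change over the square root of F. Input-adjusted means the difference of 2 pulldown over input contrasts. Log2 CPM for correlations used a prior count of 2. Simulated counts, with 200 IDs changed by known folds, were used to test the fit. Alternatives were library size, no filter, a replicate block, TMM without the 8 genes, only the libraries compared, no input correction, DESeq2 1.42.0, other forms of the mRNA to rRNA ratio and each library left out; a crossed replicate block was added after seeing the data. The 8 genes, the lists and the tests were chosen with earlier results of these data known.

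Symbols of the 8 genes come with their IDs from the rule that chose them, and lengths and positions from the RefSeq table of GRCh38.p14, in which 0 Ensembl IDs are paired with symbols. The 5 lists of related genes and the cell type markers, HEK293T markers included, could therefore not be applied. All 8 genes were tested in every main comparison, and for some comparisons the text gives values of only part of them. Deviations of same-numbered pulldowns and inputs correlated between -0.07 and 0.14, so the numbers were not taken as pairs. Between T20 and T0 inputs that correlation was -0.699, which led to the crossed block. A chi-square between replicates, over IDs whose pair held 10 or more counts, came to 1.31 to 77.3 per ID, and no replicate pair held identical values.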

Additional observations from a re-analysis of the deposited data

Results flagged for a closer look

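MT-CO3 and MT-ATP6 were flagged because every pulldown moved one way against its inputs in 1 construct and the other way in another. The share of all IDs that met this rule was not computed. Within a single construct, 21.6% to 25.5% of all IDs lay below the inputs without overlap and 22% to 26.5% above them. For MT-CO3, pulldown over input was -0.31 with APEX-CBX1 and 0.26 with C1-APEX, a difference of -0.57 on the log2 scale (edgeR adjusted p = 0.278). It was 0.26 with C1-APEX and -0.34 with APEX-GFP, a difference of 0.6 (edgeR adjusted p = 0.330). The differences of C1-APEX from APEX-eIF4E (0.46) and from APEX-eIF4A (0.57) were not tested. For MT-ATP6 the value was -0.18 with APEX-CBX1 and 0.21 with C1-APEX, a difference of -0.39 (edgeR adjusted p = 0.546), and that of APEX-CBX1 from APEX-eIF4A (-0.31) was not tested. The C1-APEX pulldown replicates correlated at 0.761, less than those of any other naive construct; its part in these values was not tested.

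Among the stress libraries, 3 genes were flagged because they moved in opposite directions in pulldowns and inputs, or at T20 and T0. The share of all IDs that met this rule was not computed here either. MT-CO1 had a pulldown over input of -0.19 at T20 and 1.06 at T0, a difference of -1.26 (edgeR adjusted p = 0.681), which is also its T20 over T0 change in pulldowns minus that in inputs. MT-ATP6 had -0.48 in pulldowns and 1.62 in inputs for T20 over T0, a difference of -2.1 (edgeR adjusted p = 0.676). MT-RNR2 had -0.31 in pulldowns and 0.59 in inputs, a difference of -0.9 (edgeR adjusted p = 0.681). MT-ATP6 rests on 44 and 6 counts in the T0 inputs. No group has the 4 libraries needed to look for a library far from the others.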

How the results depend on the processing

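The replicate block and TMM without the 8 genes each changed 0 of the calls of these genes, and the crossed block for T20 over T0 inputs called 8 IDs and 0 of the 8 genes. Under library size, MT-CO2 turned to 0.12 for eIF4E and 0.0204 for eIF4A, MT-CO3 to 0.67 and 0.51, and MT-CO1 to 0.77 for eIF4A; the 8 genes then gave 1 call for CBX1 (7.33% of all IDs in that fit), 6 for eIF4A (31.7%) and 0 for eIF4E (6.26%) and eIF4A inputs (3.53%) over GFP inputs. With no filter the C1 inputs gave 1 call (0.187% of all IDs). With only the libraries compared there was 1 call for C1 (0.158%), 3 for T20 (0.181%), 2 for C1 inputs (4.57%), 4 for eIF4E inputs (13.3%) and 6 for eIF4A inputs (5.38%). DESeq2 gave 1 for C1 inputs (2.77% of IDs with an adjusted p), 4 for eIF4A inputs (8.71%) and 1 for T20 over T0 pulldowns (7.92%). With no input correction the constructs gave 5 (C1), 4 (eIF4E) and 2 (eIF4A) over GFP and 5 for CBX1 over C1, with MT-CO1 at 0.59 for eIF4A over GFP. The cause of these changes was not tested.

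Pulldown minus input in log2 mRNA over rRNA kept its sign in every form. With MT-RNR1 alone it was 1.41 for C1, 0.83 for CBX1, 1.40 for eIF4E, 1.27 for eIF4A, 1.15 for GFP and -10.39 at T20. With MT-RNR2 alone it was 0.89 for C1, 0.31 for CBX1, 1.34 for eIF4E, 0.85 for GFP and -9.36 at T20. As a mean of log2 counts it was 1.31 for C1, 1.32 for eIF4E, 1.29 for eIF4A, -7.42 under hippuristanol, -7.90 at T0 and -8.09 at T20. Leaving out a library left 1 library in a group, and the share of all IDs called in those fits was not computed. Calls of these genes that ended or held there are therefore not set against a change over all IDs. Of 1116 fold changes under other settings 48 were called neither way and changed sign, and of 928 with a library left out 86 were. MT-ATP8 had no value with only the libraries compared in 4 stress comparisons, where the filter removed it. Low counts limit MT-ATP8 in both tables and both rRNAs in the stress inputs, although those inputs had the highest total counts of all libraries.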
